A study of Mus musculus with 7 samples.

Results

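The mitochondrial ribosomal protein genes of inguinal white adipose tissue were taken as every protein-coding gene in the deposited count table whose symbol begins with Mrpl or Mrps followed by a digit. The rule found 78 genes among 55487 in the table, and used no expression value. This fat pad of the groin was profiled by RNA sequencing in 7 libraries; all mice were of genotype NOD/ShiLtJ, a strain prone to autoimmune diabetes. In 4 libraries, called imBAT, the mice had been injected with the protein fraction above 100 kDa of buffer conditioned by brown adipocytes, at 1.5 mg/kg body weight. In 3 libraries, called sham, the mice had been given KRBH, the buffer alone. The protocol states subcutaneous injection over 7 days, in animals whose glycaemia was 190 to 230 mg/dL, and tissue collection 2 to 8 weeks later. The labels give neither the week of each library, the sex and age of the mice, nor whether separate libraries are separate animals, so the p-values below measure the spread between these libraries, which may be technical.

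Mitochondria carry their own ribosome, which translates the few proteins encoded in mitochondrial DNA, all of them subunits of the respiratory chain and ATP synthase. Its ribosomal RNAs come from mitochondrial DNA, but all of its proteins are encoded in the nucleus, made in the cytosol and imported. The large subunit joins amino acids and the small subunit decodes the messenger RNA; some of the proteins descend from bacterial ribosomal proteins and others are found in mitochondria alone. Brown fat cells are rich in mitochondria and white fat cells hold fewer, and the nuclear genes for mitochondrial proteins are commonly driven by factors such as NRF1, the ETS-family factor GABP and YY1.

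The 250 bases before the annotated start were available for 69 of the 78 genes, from RefSeq on the GRCm38.p6 build. They are shown for the genes with the largest rise in each subunit (Mrps6 and Mrpl27), for the gene that fell (Mrpl24), and for a gene with each of the motifs searched. Capitals mark a match to the ETS-family core CCGGAAG (Mrpl27 and Mrpl17), to the palindrome bound by NRF1 (Mrpl39) or to the reverse complement of the YY1 motif AAGATGGCG (Mrps11). The windows lie at chr16:92058086-92058335 (plus strand), chr11:94653541-94653790 (plus strand), chr7:105811088-105811337 (minus strand), chr16:84735245-84735494 (minus strand), chr7:78782881-78783130 (plus strand) and chr3:87919294-87919543 (plus strand), each read 5′ to 3′ along its gene.
Mrps6: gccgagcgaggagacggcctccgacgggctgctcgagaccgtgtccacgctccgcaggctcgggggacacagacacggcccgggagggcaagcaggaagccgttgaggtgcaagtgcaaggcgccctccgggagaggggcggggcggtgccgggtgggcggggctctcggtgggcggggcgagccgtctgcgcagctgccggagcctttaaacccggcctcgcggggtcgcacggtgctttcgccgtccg
Mrpl27: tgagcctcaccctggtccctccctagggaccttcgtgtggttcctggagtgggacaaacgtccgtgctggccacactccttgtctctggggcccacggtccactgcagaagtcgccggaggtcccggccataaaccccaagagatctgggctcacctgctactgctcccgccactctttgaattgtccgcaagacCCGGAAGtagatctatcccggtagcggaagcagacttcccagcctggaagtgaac
Mrpl17: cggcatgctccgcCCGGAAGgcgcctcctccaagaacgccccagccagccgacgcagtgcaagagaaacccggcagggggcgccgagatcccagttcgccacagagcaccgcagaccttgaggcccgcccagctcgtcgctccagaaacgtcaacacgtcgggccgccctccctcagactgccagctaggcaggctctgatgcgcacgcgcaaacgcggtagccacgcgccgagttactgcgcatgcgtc
Mrpl39: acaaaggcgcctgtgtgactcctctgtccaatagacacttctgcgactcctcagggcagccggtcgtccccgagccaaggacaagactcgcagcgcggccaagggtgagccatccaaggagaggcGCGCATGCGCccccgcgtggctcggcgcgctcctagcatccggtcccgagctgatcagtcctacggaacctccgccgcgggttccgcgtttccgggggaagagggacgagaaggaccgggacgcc
Mrps11: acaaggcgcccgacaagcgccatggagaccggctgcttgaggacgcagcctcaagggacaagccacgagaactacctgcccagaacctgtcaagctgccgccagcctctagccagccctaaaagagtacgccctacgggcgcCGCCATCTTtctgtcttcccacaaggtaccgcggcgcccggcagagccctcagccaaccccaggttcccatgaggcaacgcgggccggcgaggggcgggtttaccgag
Mrpl24: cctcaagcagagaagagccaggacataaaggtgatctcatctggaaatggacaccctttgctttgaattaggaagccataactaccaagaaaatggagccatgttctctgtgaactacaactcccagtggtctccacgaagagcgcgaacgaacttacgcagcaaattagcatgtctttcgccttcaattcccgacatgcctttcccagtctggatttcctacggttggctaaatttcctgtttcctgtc

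Both strands were searched. The ETS core was found for 18 of the 69 genes (26.1%), against 10.4% of 16733 other protein-coding genes. A gene with several annotated starts was counted if any of its windows held a match, as for Mrpl48, where only a part of the windows did. The NRF1 palindrome was found for 3 genes (4.35%, against 1.23%), Mrpl32, Mrpl39 and Mrpl9. The YY1 motif was found for 2 (2.90%, against 0.861%), Mrpl36 and Mrps11. The windows of Mrps6 and Mrpl24 hold none of these letters. A match is a string of letters and not a measured binding site.

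The libraries held 43360208 to 63650016 counts in imBAT and 41025786 to 44983250 in sham. Levels are given as CPM, counts relative to the library total, with the total scaled by TMM, a factor computed from the bulk of the genes, which was 0.809 to 0.963 in imBAT and 1.10 to 1.17 in sham. The markers of adipocytes, the defining cells of this tissue, were present in every library, but their summed level was 11298 to 28088 CPM in imBAT and 2128 to 4529 CPM in sham. All 10 of them were called higher in imBAT. T cell markers summed to 188 to 612 CPM in imBAT and 1203 to 1521 CPM in sham, and B cell markers to 243 to 665 CPM in imBAT and 1586 to 1872 CPM in sham, with all 10 and all 8 markers called lower. Markers of other cells moved as well. Stroma summed to 3117 to 5123 CPM in imBAT and 607 to 805 CPM in sham (5 of 5 markers higher), and epithelium to 603 to 1250.2 CPM in imBAT and 89.0 to 300.4 CPM in sham (5 of 5 higher). Macrophage markers summed to 402 to 1222 CPM in imBAT and 343 to 367 CPM in sham (4 of 6 higher), and endothelium to 816 to 1018 CPM in imBAT and 605 to 681 CPM in sham (4 of 5 higher, 1 lower). Skeletal muscle summed to 9.78 to 90.01 CPM in imBAT and 2.48 to 5.51 CPM in sham (4 of 5 higher), and brown and beige adipocytes to 54.6 to 118 CPM in imBAT and 13.7 to 26.5 CPM in sham (4 of 4 tested higher). Markers of cycling cells summed to 69.5 to 115 CPM in imBAT and 193 to 316 CPM in sham (5 of 5 lower). These sums did not overlap between the groups, so every comparison of imBAT with sham below is between libraries that also differ in these markers. The part of these marker differences in the results on mitochondrial ribosomal proteins was not tested. In such bulk tissue, fewer cells of a type and less RNA per cell cannot be told apart.

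Of the 78 genes, 77 passed the filter on low counts and 33 (42.9%) were called higher in imBAT than in sham, by edgeR's quasi-likelihood test with a Benjamini-Hochberg adjusted p under 0.05 over all 26393 genes tested. The same test called 24.3% of all genes higher, and 34.2% of the protein-coding ones. It called 1 member, Mrpl24, lower (1.3%), against 19.3% of all genes and 19.7% of the protein-coding ones. The other 43 were not called. The differences were small and leaned one way: 72 of 77 log2 fold changes lay above 0, with a median of 0.41, an interquartile range of 0.24 to 0.62 and a full range of -0.29 to 1.16. The median over all genes tested was -0.01 and over protein-coding genes 0.15. In 48 members the lowest imBAT library stood above the highest sham library, and in 1 every imBAT library stood below every sham library. Among all genes these shares were 26.8% and 25.2%, or 52% in either direction. They were not computed for protein-coding genes alone.

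The count of rises depended on the libraries and on the scaling. It was 18 of 77 without sham replicate 2 and 20 of 77 without sham replicate 3, against 16.5% and 17.3% of all genes. Without imBAT replicate 2 it was 49 of 77, against 24.8% of all genes. With upper-quartile scaling, which lowers the median of all genes to -0.25, 17 members were called higher and 4 lower (Mrpl24, Mrpl19, Mrps9 and Mrps10), against 17.9% and 31% of all genes; the members' median was then 0.16, or 0.41 above that of all genes. The 17 were all among the 33, and the same 17 were called in each of the 14 other fits. All members are protein-coding, and the main fit called 34.2% of protein-coding genes higher, against 24.3% of all genes. The protein-coding share was not computed for the other fits, so the shares of all genes given for them may be too low a comparison.

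**Figure D1:**
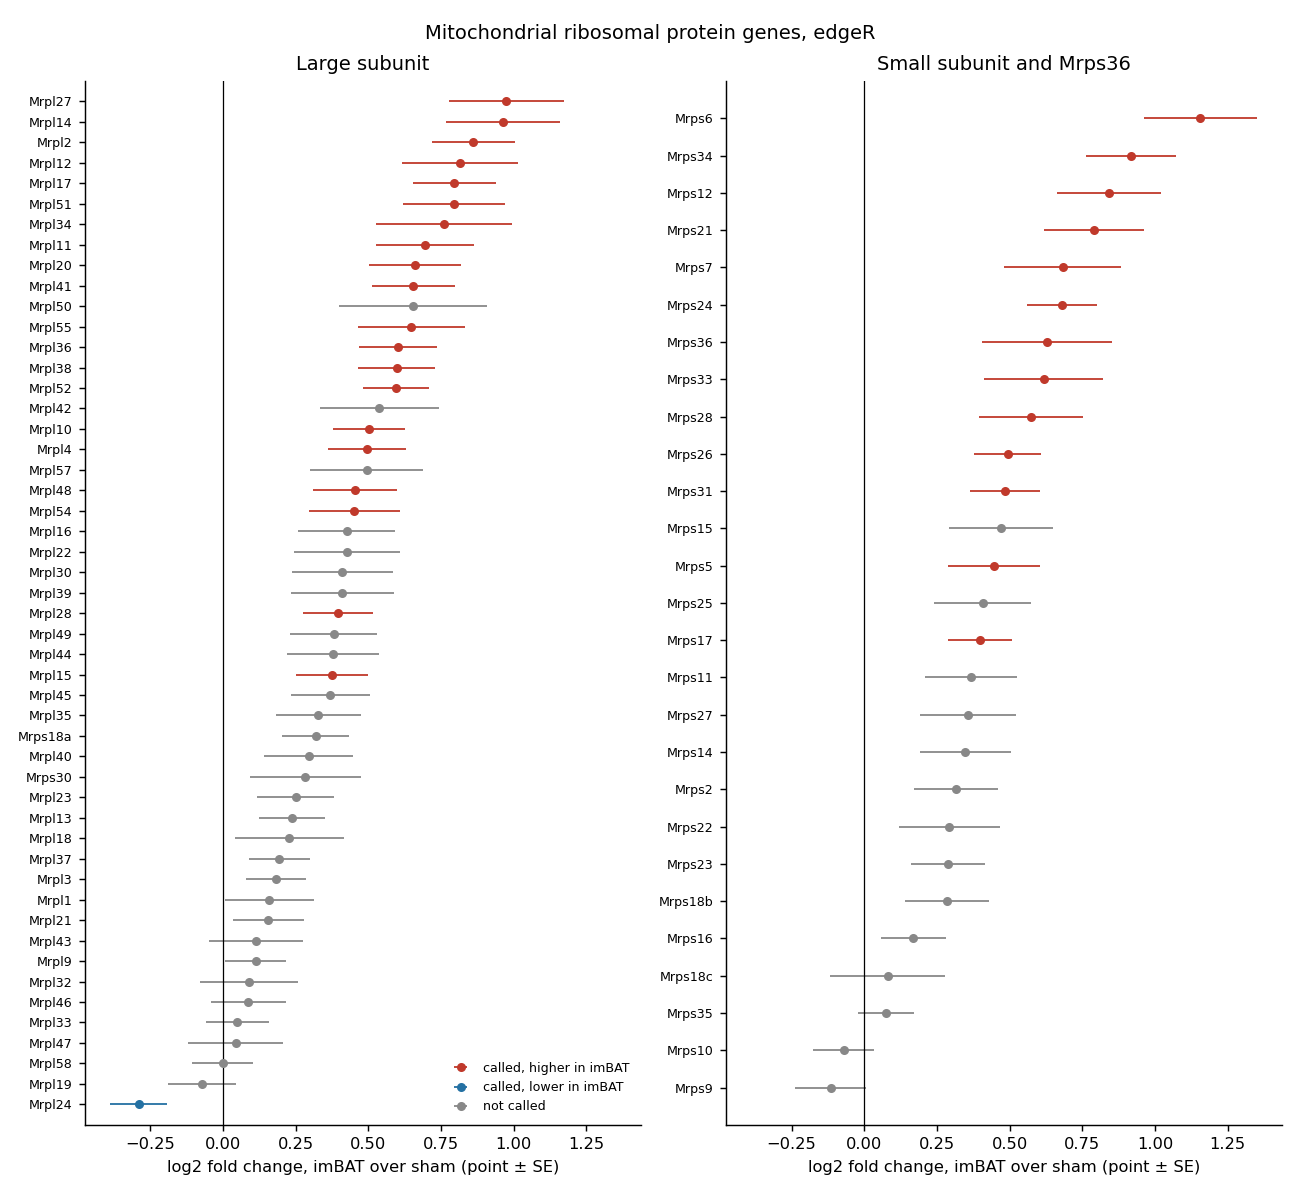
Log2 fold change of imBAT over sham for each of the 77 tested mitochondrial ribosomal protein genes (point, with its standard error as the bar), by subunit and ranked within it; red marks genes called higher in imBAT, blue the gene called lower and grey those not called. Nearly all points lie right of 0, from 1.16 for Mrps6 to -0.29 for Mrpl24, with no gap between the called and the uncalled genes.

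The rises were found in both subunits. In the large subunit, with 51 genes (Mrps18a and Mrps30 among them, whose proteins sit in the large subunit despite their names), 20 of 50 tested were higher and 1 lower, with a median log2 fold change of 0.40. In the small subunit 12 of 26 were higher and none lower, with a median of 0.40. Proteins with a bacterial counterpart and those specific to mitochondria gave 22 of 46 and 10 of 30 tested genes higher, with medians of 0.40 and 0.39. Whether these shares differ was not tested.

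In the small subunit the largest rise was that of Mrps6, the counterpart of bacterial protein S6. Its level was 21.5, 27.2, 33.0 and 18.8 CPM in imBAT libraries 1 to 4, and 11.5, 11.3 and 10.99 CPM in sham libraries 1 to 3. The sham libraries were nearly level and every imBAT library stood above them, at a log2 fold change of 1.16 ± 0.20 (SE; adjusted p = 0.0029). Mrps6 was the single member whose change passed 1 on the log2 scale. The gene lies at chr16:92058270-92112227 (plus strand, GRCm38, GENCODE M21), and 19.9% of its annotated exonic bases also belong to exons of other genes, among them Slc5a3, the myo-inositol transporter. Slc5a3 itself averaged 249 CPM in imBAT and 82.6 CPM in sham (log2 fold change 1.59 ± 0.28, adjusted p = 0.0033), so some of the reads counted for either gene may belong to the other.

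Mrps34, a protein specific to mitochondria that is needed for a stable small subunit, had 15.96, 12.9, 17.0 and 12.7 CPM in imBAT and 7.63, 7.55 and 8.08 CPM in sham. The groups did not overlap, and the log2 fold change was 0.92 ± 0.16 (adjusted p = 0.0029). Of its annotated exonic bases 77.8% are shared with exons of Mapk8ip3 and Nme3. Mapk8ip3, with 211 CPM in imBAT and 212 CPM in sham, was not called (log2 fold change -0.01 ± 0.10, adjusted p = 0.954). Mrps12, which lines the decoding centre, had 22.6, 19.1, 26.3 and 19.7 CPM in imBAT and 14.6, 9.68 and 12.3 CPM in sham. Its sham values varied more than those of Mrps6 but stayed below all imBAT values (log2 fold change 0.84 ± 0.18, adjusted p = 0.0066).

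In the large subunit Mrpl27, a protein that reaches towards the site of peptide bond formation in bacterial ribosomes, rose most. It had 17.3, 13.9, 21.8 and 15.1 CPM in imBAT and 7.32, 8.35 and 10.3 CPM in sham (log2 fold change 0.97 ± 0.20, adjusted p = 0.0056). Mrpl14, which lies at the face that meets the small subunit, had 13.4, 12.8, 18.2 and 12.9 CPM in imBAT and 8.55, 5.84 and 7.61 CPM in sham. The groups of both genes were apart, and for Mrpl14 imBAT replicate 3 stood well above the other 3 imBAT libraries, which were nearly equal (log2 fold change 0.96 ± 0.20, adjusted p = 0.0056). Mrpl2, a core protein of the peptidyl transferase region, had 39.7, 33.5, 48.5 and 36.2 CPM in imBAT and 23.3, 21.9 and 19.9 CPM in sham. With a log2 fold change of 0.86 ± 0.14 it had the lowest adjusted p of the 8 largest rises (0.0027). Mrpl12, the stalk protein that recruits translation factors, had 52.3, 39.8, 66.9 and 39.7 CPM in imBAT and 31.3, 24.6 and 28.8 CPM in sham (log2 fold change 0.82 ± 0.20, adjusted p = 0.0115). Mrpl17, whose promoter window is among those printed above, had 50.9, 46.0, 61.2 and 43.7 CPM in imBAT and 32.8, 28.4 and 26.0 CPM in sham (log2 fold change 0.80 ± 0.14, adjusted p = 0.0035). All 8 of these genes were called higher in each of the 14 other fits.

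**Figure D2:**
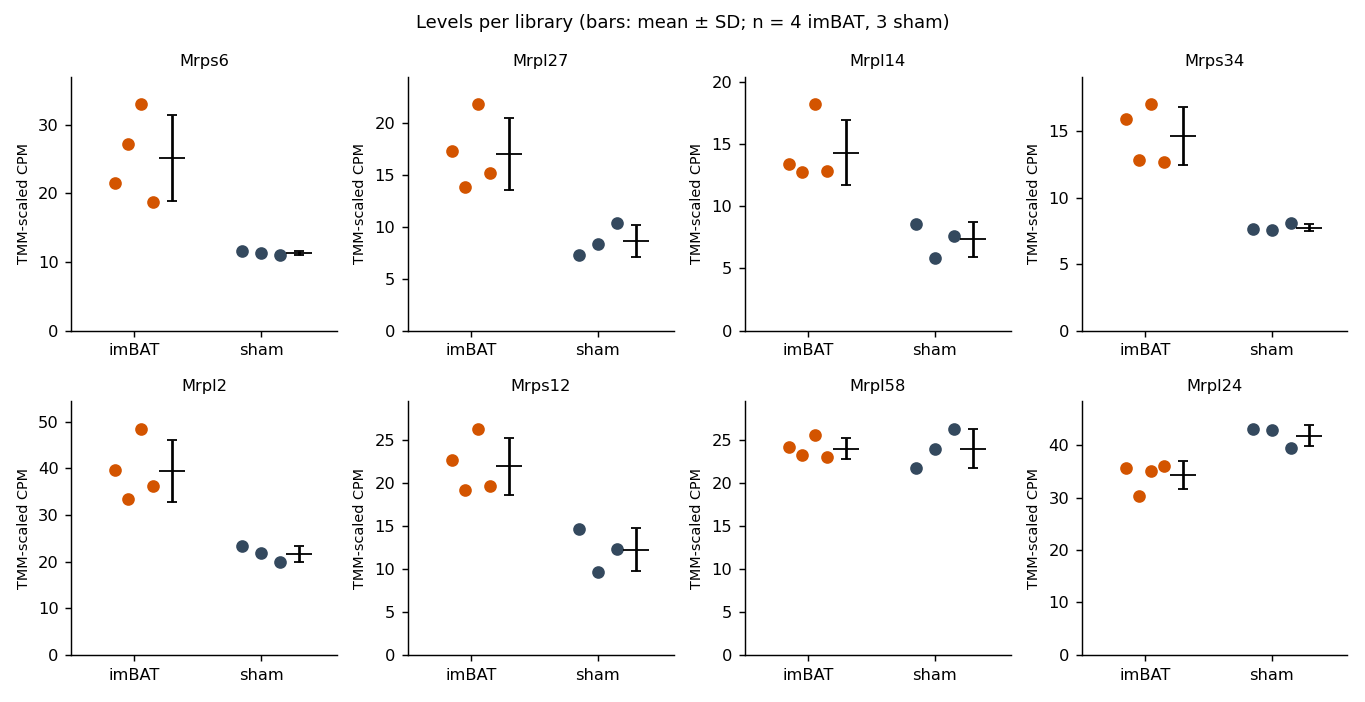
TMM-scaled CPM per library for 6 of the genes with the largest rises, for Mrpl58, which was not called, and for Mrpl24, the gene called lower; points are single libraries (imBAT orange, n = 4; sham dark blue, n = 3) and the bars give mean ± SD. Each of the 6 rising genes has its 4 imBAT points above its 3 sham points, as in Mrps6 with 18.8 to 33.0 against 10.99 to 11.5 CPM, while the order is turned round in Mrpl24.

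The smallest rises among called members were those of Mrps5 (log2 fold change 0.45 ± 0.16, adjusted p = 0.047), Mrps17 (0.40 ± 0.11, adjusted p = 0.0191), Mrpl28 (0.40 ± 0.12, adjusted p = 0.028) and Mrpl15 (0.37 ± 0.12, adjusted p = 0.0378). Their groups did not overlap either: Mrpl15, for instance, had 32.9, 29.3, 40.3 and 31.3 CPM in imBAT and 26.3, 25.8 and 25.3 CPM in sham. Each of these calls was lost when single libraries were left out. Without sham replicate 2 the adjusted p was 0.143 for Mrps5, 0.0827 for Mrps17, 0.0900 for Mrpl28 and 0.105 for Mrpl15, and without imBAT replicate 3 it was 0.122 for Mrps5, 0.0512 for Mrps17, 0.0767 for Mrpl28 and 0.0865 for Mrpl15. Leaving out sham replicate 3 gave 0.158 for Mrps5, 0.0634 for Mrps17, 0.0916 for Mrpl28 and 0.112 for Mrpl15. Without imBAT replicate 1 the calls of Mrps5 (0.101), Mrpl28 (0.0638) and Mrpl15 (0.0687) were lost, and without sham replicate 1 those of Mrpl28 (0.0556) and Mrpl15 (0.0720).

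Among the 43 members not called, log2 fold changes ran from 0.65 for Mrpl50 to -0.12 for Mrps9. Mrpl50, a protein specific to the mitochondrial large subunit, had 19.9, 13.9, 27.3 and 13.1 CPM in imBAT and 11.7, 12.8 and 10.9 CPM in sham. The groups did not overlap, but imBAT replicate 3 held more than any other by a wide margin, and the adjusted p was 0.0664. It was 0.0389 without imBAT replicate 2 and 0.0341 without imBAT replicate 4, and up to 0.173 with another library left out. Without imBAT replicate 3 the log2 fold change was 0.36. At the other end, Mrpl58, a peptidyl-tRNA hydrolase that became part of the large subunit and can free stalled ribosomes, had 24.1, 23.2, 25.6 and 22.9 CPM in imBAT and 21.7, 23.9 and 26.3 CPM in sham. Its groups overlapped fully and its log2 fold change was -0.0009 ± 0.11. Mrps10 (-0.07 ± 0.11), Mrpl19 (-0.07 ± 0.12) and Mrps9 (-0.12 ± 0.12) were the other uncalled members below 0. A missed threshold does not show that these genes were equal in both groups.

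Mrpl24, a large subunit protein near the mouth of the peptide exit tunnel in its bacterial counterpart, went the other way. It had 35.7, 30.3, 35.0 and 35.9 CPM in imBAT and 43.1, 42.8 and 39.5 CPM in sham. Every imBAT library was below every sham library, with a log2 fold change of -0.29 ± 0.10 (adjusted p = 0.0411). The call was kept without imBAT replicate 3 (adjusted p = 0.0257) but lost without each of the other 6 libraries, with adjusted p of 0.0641, 0.0690 and 0.0558 without imBAT replicates 1, 2 and 4, and of 0.112, 0.131 and 0.0769 without sham replicates 1, 2 and 3. The gene lies at chr3:87919506-87923672 (plus strand), and 26.3% of its exonic bases are shared with Rrnad1, which was also lower (30.1 CPM in imBAT and 40.8 CPM in sham, log2 fold change -0.44 ± 0.11, adjusted p = 0.012).

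The 3 paralogs of bacterial protein S18 did not pass the test. In the counts by bacterial counterpart above, Mrps18c was taken as having one, and Mrps18a and Mrps18b as specific to mitochondria. Mrps18a, which sits in the large subunit, had 33.8, 33.2, 42.9 and 38.2 CPM in imBAT and 29.3, 28.5 and 31.3 CPM in sham. These groups were apart, with a log2 fold change of 0.32 ± 0.12 and an adjusted p of 0.0523. That p was 0.0330 without imBAT replicate 2 and up to 0.159 with another library left out. Mrps18b (0.28 ± 0.14, adjusted p = 0.140) and Mrps18c (0.08 ± 0.20, adjusted p = 0.761) sit in the small subunit, and their groups overlapped. Mrps36 is now counted as a part of the oxoglutarate dehydrogenase complex and not of the ribosome, though the rule takes it by name. It had 6.69, 5.59, 8.26 and 4.96 CPM in imBAT and 4.86, 3.88 and 3.63 CPM in sham (log2 fold change 0.63 ± 0.22, adjusted p = 0.0488). Its groups were apart by a narrow margin, and without imBAT replicate 1, imBAT replicate 3, sham replicate 2 or sham replicate 3 it was not called, with an adjusted p of up to 0.155.

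Levels were compared between genes as the group's mean CPM per kilobase of each gene's longest CCDS transcript. The counts are per gene, and annotated exonic length can be far longer than that transcript. It is 7326 against 478 bases for Mrpl33 and 3690 against 884 bases for Mrps18a. The order below therefore depends on the length used, and other lengths were not tried. Mrpl52 stood at 73.0 CPM per kilobase in imBAT and 48.3 in sham, Mrpl33 at 61.3 in imBAT and 59.2 in sham, Mrps21 at 50.3 in imBAT and 29.1 in sham, and Mrpl4 at 44.6 in imBAT and 31.6 in sham. These were the highest levels in imBAT, in that order. In sham Mrpl33 stood above Mrpl52, followed by Mrps18a (41.9 in imBAT and 33.6 in sham), Mrpl4, Mrpl24 (25.6 in imBAT and 31.2 in sham) and Mrps21. Mrpl52 and Mrps21 were called higher in imBAT, by 0.59 ± 0.11 and 0.79 ± 0.17 on the log2 scale (adjusted p = 0.0046 and 0.0074). Mrpl4 was called as well (0.50 ± 0.13, adjusted p = 0.0176), but not without sham replicate 2 (0.0733) or sham replicate 3 (0.0711), and Mrpl33 was not called (0.05 ± 0.11). The lowest over all 7 libraries were Mrpl47 (2.54 in imBAT and 2.46 in sham), Mrps25 (3.31 in imBAT and 2.50 in sham) and Mrpl19 (3.12 in imBAT and 3.28 in sham), none of them called, and Mrpl53. Mrpl53 had 2 counts in imBAT replicate 4, 7 in sham replicate 3 and 0 in the other 5 libraries, too few for a test. Of its exonic bases 88% lie in exons of other genes, chiefly the readthrough gene Gm42688, so its level is uncertain.

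Within the imBAT group most members shared the highest library. For 69 of the 77 tested members imBAT replicate 3 was the highest imBAT library, and for none was it the lowest. The lowest library was split, being imBAT replicate 2 for 43 members and imBAT replicate 4 for 31. This order is in TMM-scaled CPM and depends on the factors, which were 0.809 in replicate 3 and 0.899 to 0.963 in the other imBAT libraries. A smaller factor raises every gene of its library, and the order per member was not counted without scaling. As a plain share of all counts, the members' sum was also highest in replicate 3 (0.176%, against 0.155% to 0.169%). The coefficient of variation had a median of 15.8% in imBAT and 7.57% in sham, and was larger in imBAT for 70 of 77 members. Replicate 3 also had the highest adipocyte marker sum (28088 CPM), the lowest T cell and B cell marker sums (188 and 243 CPM) and the smallest TMM factor (0.809). Without it 23 of 77 members were called higher, against 20.7% of all genes, and 1 lower. In that fit 64 of 77 lay above 0 and the members' median log2 fold change was 0.25, against -0.07 for all genes.

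Summed over the 78 genes, the level was 1879, 1612, 2177 and 1660 CPM in imBAT and 1420, 1334 and 1380 CPM in sham. Every imBAT library stood above every sham library, and the means were 1832 ± 258 (SD, n = 4) and 1378 ± 43.1 CPM (SD, n = 3), a ratio of 1.33. As a plain share of all counts, with no scaling factor, the genes took up 0.169%, 0.155%, 0.176% and 0.160% of the imBAT libraries and 0.157%, 0.156% and 0.158% of the sham libraries. On that scale the groups overlapped and the ratio of the means was 1.05. The balance of the subunits, which needs no scaling, did not separate the groups: the large subunit held 2.07 ± 0.04 times the small subunit's summed CPM in imBAT and 2.07 ± 0.02 times in sham.

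**Figure D3:**
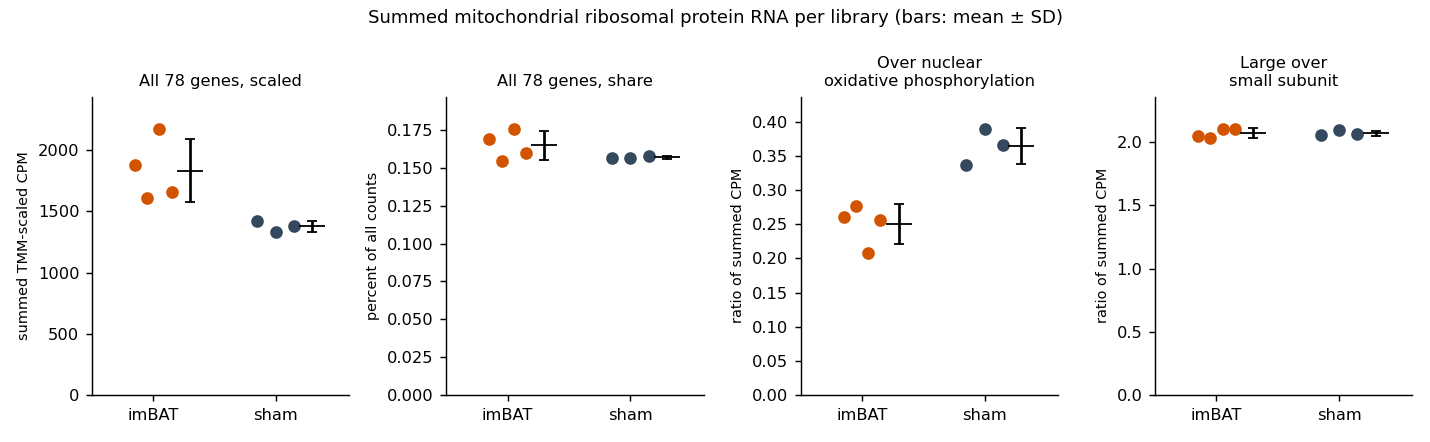
Summed level of the 78 genes per library as TMM-scaled CPM and as a percent of all counts, its ratio to the summed nuclear oxidative phosphorylation genes, and the ratio of the large to the small subunit; points are libraries (imBAT orange, n = 4; sham dark blue, n = 3) and the bars give mean ± SD. The groups are apart in the scaled sum (1612 to 2177 against 1334 to 1420 CPM) and in the ratio to oxidative phosphorylation (0.208 to 0.277 against 0.337 to 0.390), and overlap in the other 2 panels.

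Nuclear genes for oxidative phosphorylation had larger fold changes than the members. Of 85 tested genes for subunits of the respiratory complexes and ATP synthase, 77 were higher and 0 lower, with a median log2 fold change of 0.98 (64 higher, 1 lower and 0.73 with upper-quartile scaling). The members' summed CPM was 0.261, 0.277, 0.208 and 0.256 of the summed CPM of these genes in imBAT, and 0.337, 0.390 and 0.366 in sham. The ratio was below every sham value in each imBAT library, and lowest in imBAT replicate 3 (means 0.250 ± 0.030 and 0.364 ± 0.027, a ratio of 0.687). Because the ratio is formed within a library, it does not depend on the scaling. The subunits encoded in mitochondrial DNA, the products that this ribosome makes, were higher for 10 of 13 genes, with a median of 0.94. Among them mt-Nd4 averaged 1403 CPM in imBAT and 496 CPM in sham (1.50 ± 0.23, adjusted p = 0.0022), and the members' sum was 0.105 ± 0.014 of theirs in imBAT and 0.156 ± 0.016 in sham. Import and chaperone genes were higher for 14 of 21 (median 0.55), and Timm8b, a small chaperone of the intermembrane space, had the largest rise of these (1.08 ± 0.25, adjusted p = 0.0091). With upper-quartile scaling 6 of the 21 were higher and 1 lower (median 0.31).

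Genes for proteins of the cytosolic ribosome lay on the other side of 0: 0 of 77 genes were higher and 24 lower, with a median of -0.28. With upper-quartile scaling 68 were lower, against 31% of all genes. The members' sum was 0.0752 to 0.118 of the cytosolic ribosomal protein sum in imBAT and 0.0504 to 0.0581 in sham, without overlap.

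**Figure D4:**
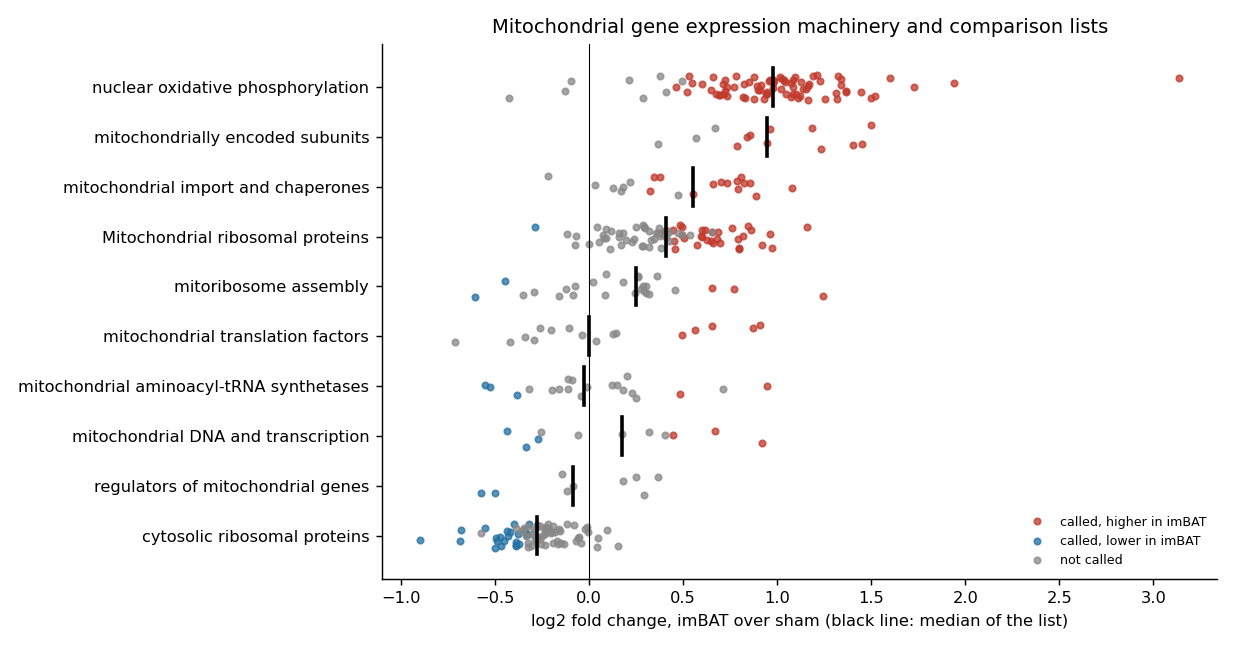
Log2 fold change of imBAT over sham for each tested gene (point) of the mitochondrial ribosomal proteins and of 9 lists set beside them, with the list median as a black line; red marks genes called higher in imBAT, blue those called lower and grey those not called. The median of the mitochondrial ribosomal proteins (0.41) lies between those of oxidative phosphorylation (0.98) and of the cytosolic ribosomal proteins (-0.28).

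The factors that build and serve the mitochondrial ribosome did not move as a block. Of 5 ribosome components that carry other names, Aurkaip1 (0.68 ± 0.13, adjusted p = 0.0039) and Chchd1 (0.52 ± 0.18, adjusted p = 0.0402, lost without any of 5 libraries, at up to 0.117) were higher, while Dap3, Ptcd3 and Gadd45gip1 were not called; with upper-quartile scaling 1 was higher and 3 lower. Of 26 assembly factors 3 were higher and 2 lower (median 0.25). With upper-quartile scaling 2 were higher and 6 lower (median 0.007). That scaling lowered the median of all genes to -0.25 and called 17.9% of all genes higher and 31% lower. Relative to the median of all genes, the assembly factors' median was 0.26 in the main fit and 0.25 with that scaling. Ddx28, an RNA helicase of large subunit assembly, had 23.8, 27.7, 22.2 and 16.6 CPM in imBAT and 8.51, 8.13 and 11.96 CPM in sham (1.24 ± 0.21, adjusted p = 0.0029). Its fold change lay above that of all 77 tested members. Mpv17l2, which associates with the large subunit, rose by 0.77 ± 0.17 (adjusted p = 0.0069), and Mettl17, which acts in small subunit assembly, fell by 0.61 (SE 0.13, adjusted p = 0.0064), at 27.9 ± 3.86 CPM in imBAT and 42.5 ± 3.47 CPM in sham.

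Of 16 translation factors 5 were higher and none lower. Their median was 0.0007, and it turned negative with RLE scaling (-0.004) and upper-quartile scaling (-0.24). With upper-quartile scaling 2 of the genes were higher and 8 lower, against 17.9% and 31% of all genes. Relative to the median of all genes, their median was 0.009 in the main fit and with upper-quartile scaling. Mrrf, the ribosome recycling factor, had 22.3, 17.4, 24.8 and 18.6 CPM in imBAT and 11.9, 10.6 and 11.6 CPM in sham (0.87 ± 0.15, adjusted p = 0.0033), and Mtrf1, a release factor, rose by 0.91 ± 0.20 (adjusted p = 0.0081). Of 20 genes that charge mitochondrial tRNAs 2 were higher and 3 lower (median -0.03), or 1 and 9 with upper-quartile scaling (median -0.26). Relative to the median of all genes, their median was -0.02 in both fits. The changes in this list included opposite ones in a single enzyme complex, the glutamyl-tRNA amidotransferase: Gatb rose by 0.95 ± 0.15 (adjusted p = 0.0026), and Qrsl1 fell by 0.55 (SE 0.13, adjusted p = 0.0087). Of 11 genes of mitochondrial DNA and transcription 3 were higher and 3 lower (median 0.18), or 1 and 3 with upper-quartile scaling (median -0.06). Relative to the median of all genes, these medians were 0.18 and 0.19. Tefm, the elongation factor of mitochondrial transcription, rose by 0.92 ± 0.18 (adjusted p = 0.0052), and Tfam, which packages mitochondrial DNA, fell by 0.34 (SE 0.09, adjusted p = 0.0168), or by 0.30 without sham replicate 2 (adjusted p = 0.0809). The mitochondrial ribosomal RNAs were not called: mt-Rnr1 had 60.3, 13.3, 107 and 107 CPM in imBAT and 44.2, 34.7 and 53.3 CPM in sham (0.70 ± 0.58; 1.06 with an adjusted p of 0.0133 without imBAT replicate 2). For mt-Rnr2 the values were 14.9, 15.7, 27.5 and 29.7 CPM in imBAT and 20.5, 22.0 and 37.0 CPM in sham, and the groups overlapped (-0.27 ± 0.31, adjusted p = 0.490). The mitochondrial messenger mt-Co1, by comparison, averaged 6545 CPM in imBAT and 3621 CPM in sham. How much ribosomal RNA the libraries kept was not examined, so the values of mt-Rnr1 and mt-Rnr2 may not give its abundance.

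Of 9 regulators of nuclear genes for mitochondria none was called higher and 2 were lower, or 4 with upper-quartile scaling, which called 31% of all genes lower. Nrf1 had 54.1, 66.2, 55.4 and 59.1 CPM in imBAT and 84.0, 81.3 and 84.0 CPM in sham (log2 fold change -0.50 ± 0.10, adjusted p = 0.0045). Gabpb1, a partner of the ETS factor GABP, had 30.5, 33.6, 22.9 and 30.7 CPM in imBAT and 44.3, 43.0 and 44.1 CPM in sham (-0.57 ± 0.13, adjusted p = 0.0092). The groups of both were apart. Gabpa (-0.08 ± 0.09), Esrra (0.25 ± 0.09, adjusted p = 0.0514, or 0.0375 without imBAT replicate 4) and Myc (0.18 ± 0.13) were not called, and Ppargc1a, the coactivator PGC-1α, ranged over 3.97 to 11.95 CPM in imBAT and 2.29 to 12.2 CPM in sham (0.37 ± 0.59; 1.47 with an adjusted p of 0.0377 without sham replicate 1). Members with any of the printed motifs in any of their windows had a median log2 fold change of 0.36 (8 of 22 tested higher), and those with none had 0.41 (19 of 46 higher).

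Within the family, shorter genes had the larger fold changes. Over the 77 tested members Spearman's rho between log2 fold change and annotated exonic length was -0.48, a description across genes of the same 7 libraries. Over 16015 other protein-coding genes it was -0.05. Of the 26 shortest members (607 to 1667 bases) 19 were higher, with a median of 0.62. The 25 of middle length (1693 to 3291 bases) had 7 higher and a median of 0.41, and the 26 longest (3332 to 8631 bases) had 7 higher and a median of 0.27. Other protein-coding genes in the same length ranges, from short to long, had medians of 0.26, 0.23 and 0.10, with 33.5%, 36.1% and 33.5% called higher. The share of members called lay above theirs for the shortest and below theirs for the middle and longest, differences that were not tested. The relation was also present in the 45 members with no exonic overlap with another gene (rho -0.60) and weaker with the length of the longest CCDS transcript (rho -0.30, against -0.02 in 15552 other genes). With mean level it was 0.03. Members differ in how much of their annotated length is used, and the transcript forms present in these libraries were not measured.

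**Figure D5:**
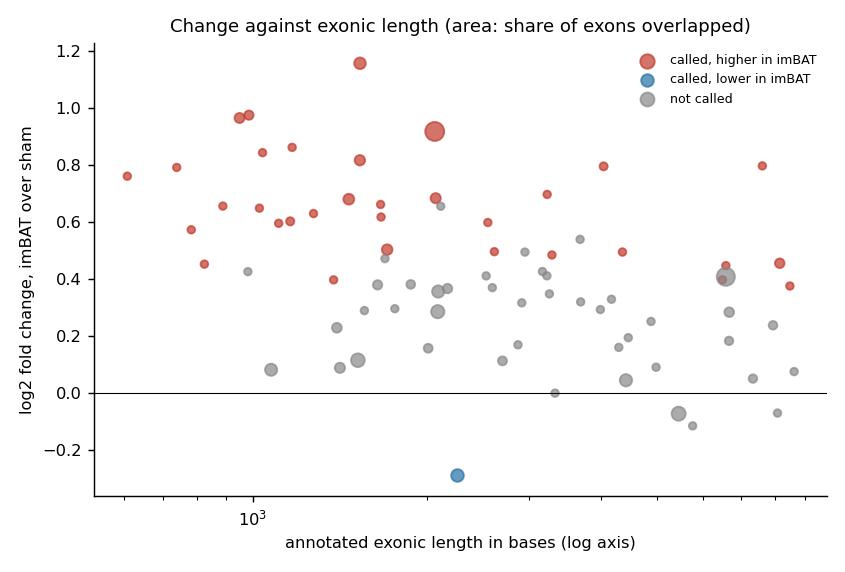
Log2 fold change of imBAT over sham against annotated exonic length in bases (log axis) for the 77 tested members; point area grows with the share of exonic bases that lie in exons of other genes, and colours mark genes called higher, lower or not called. The median is 0.62 for the 26 shortest members and 0.27 for the 26 longest, and the largest points belong to genes such as Mrps34 with 77.8% of exonic bases overlapped.

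Many members lie close to other genes. Of the 78, 33 share some exonic bases with another gene, 12 of the 32 tested among them were higher, and the median was 0.36. The 45 with none had 21 higher and a median of 0.43. With 20% or more of the exonic bases shared, 1 of 9 tested members was higher (Mrps34), 1 was lower (Mrpl24), and the median was 0.11. Mrps25, for example, shares 69.8% of its exonic bases with Nr2c2, which fell by 0.43 (SE 0.11, adjusted p = 0.0123). Mrps25 itself was at 0.41 ± 0.17 (adjusted p = 0.0769). Its adjusted p was 0.0420 without imBAT replicate 2 and up to 0.208 with another library left out. Of the 78, 18 (23.1%) have a protein-coding gene on the opposite strand whose start lies in the 1000 bases before their own. Of these, 7 are also among those with shared exonic bases. This head-to-head arrangement was found for 6.77% of 22028 protein-coding genes. Pairs whose starts overlap, such as Mrps11 and Mrpl46, were not counted. Those 18 members had 8 higher and 0 lower with a median of 0.45, while their 18 partners had 2 higher and 6 lower with a median of -0.26. Of all tested members 42.9% were higher and 1.3% lower, and of all protein-coding genes 34.2% and 19.7%. Whether the pairs differ from these shares was not tested. The pair of Mrpl51 and Ncapd2, a condensin subunit, is an example of a rise beside a fall: Mrpl51 averaged 33.2 ± 7.48 CPM in imBAT and 19.1 ± 1.68 CPM in sham (0.79 ± 0.17, adjusted p = 0.0075), and Ncapd2 30.8 CPM in imBAT and 48.2 CPM in sham (-0.65 ± 0.15, adjusted p = 0.0096). At the start of Mrps34, Eme2 fell by 0.62 (SE 0.14, adjusted p = 0.0077). The setting for strand in the counting is not given in the sources used here, so reads from overlapping genes on opposite strands may be shared between them.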

How the data were processed

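All values come from 1 deposited table of counts, which the authors made by counting reads per gene in the 7 libraries. Per the labels' protocols, STAR 2.7.9a was the aligner and Ensembl release 101 the reference. The submitters' processing notes also name featureCounts 2.0.3 and Salmon 1.5.2, without a role. How strand was treated is not given in the sources used here. Repeated gene identifiers (287 of 55774 rows) were dropped.

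Counts were tested with edgeR 4.0.16 in R 4.3.3 (quasi-likelihood F test with TMM scaling and a robust fit, minimum count 10, a group term only, 5 residual degrees of freedom). Benjamini-Hochberg adjustment covered 26393 genes, with calls under 0.05. Standard errors are the absolute log2 fold change over the root of F. Depth was 41025786 to 63650016 counts per library. No pair of libraries of a group agreed within counting noise (chi-square per degree of freedom 22.3 to 236), so none was treated as a second copy of another; this does not show that they are separate animals.

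Coordinates, exonic lengths and overlaps came from GENCODE M21 (GRCm38), which held 55227 of the gene identifiers and all 78 members. The members, lists and tests were chosen with earlier results of these data known. Single genes are named by rule: the 8 largest and 4 smallest rises, every fall, uncalled members, the highest and lowest per kilobase, the Mrps18 paralogs, and up to 3 called genes each way per list. Mrps36, Mrpl4 and Mrpl51 with its partner, the genes overlapping or facing members, and the order of examples were chosen after their values were seen. The counts of calls, the members' median and the named genes were recomputed with 2 other scalings (RLE, upper quartile), 2 other filters, DESeq2 1.42.0, voom with quality weights (limma 3.58.1), a replicate block, an adjusted p under 0.01, and each library left out. The summed level and its ratio to oxidative phosphorylation were recomputed without scaling and with each library left out, the gene lists under both scalings and without imBAT replicate 3, and the length relation under upper-quartile scaling and without imBAT replicate 3; the other ratios and the results on motifs, overlaps and facing genes have no alternative. The steps were tested on simulated data. There edgeR recovered 32% of changes of 1 on the log2 scale and 67% of changes of 2, with 7 of 106 calls false. DESeq2 recovered 56% and 81%, with 48 of 185 calls false, and voom 30% and 64%, with 7 of 101 false. Far fewer genes were called there than in the real libraries, so these shares need not hold for the real data.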

Additional observations from a re-analysis of the deposited data

Results flagged for a closer look

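In 82 groups of 4 imBAT values checked, 4 had a library farther from the others than Dixon's 95% criterion allows; chance alone flags about 1 in 20 groups. For Mrpl14 the value of imBAT replicate 3 was 18.2 CPM, with the other imBAT libraries at 12.8 to 13.4 CPM. For Mrpl47 the same library was at 10.6 CPM and the rest at 7.74 to 8.02 CPM. For Mrpl24 the value of imBAT replicate 2 was 30.3 CPM and the rest lay at 35.0 to 35.9 CPM, which leaves all 4 below the sham libraries. The summed level of the mitochondrial ribosomal proteins was 0.118 of that of the cytosolic ribosomal proteins in imBAT replicate 3, and 0.0752 to 0.0788 in the other imBAT libraries. The cause of these values was not tested.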

How the results depend on the processing

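With upper-quartile scaling 17 members were higher and 4 lower, at a median log2 fold change of 0.16, in place of 33, 1 and 0.41. With an adjusted p under 0.01, 15 of 77 members were higher, against 14.5% of all genes, and 0 lower. In all, 6200 genes were called in place of 11491. No share of protein-coding genes alone was computed for this threshold or for the other fits of this section. With no expression filter 0 members were lower. Leaving out 1 library at a time gave 18 to 49 of 77 members higher, against 16.5% to 24.8% of all genes, and 0 to 1 lower. The members' medians were then 0.25 to 0.49, and 7519 to 11403 genes were called. The summed level ratio of 1.33 was 1.05 with no scaling factor. RLE scaling, the filter of 1 CPM in 3 libraries, DESeq2 and voom gave 32 to 43 members higher and 1 lower. These fits called 24.1% to 29.3% of all genes higher. The number that opens each title was tried as a replicate block: 42 members were higher, against 23.5% of all genes, and 0 lower, with a median of 0.47. Number 22 belongs to imBAT replicate 2 alone, so in the block fit that library adds nothing to the comparison of the groups. Leaving it out without a block gave 49 members higher. Same-numbered libraries correlated at 0.134, 0.139 and 0.013 in their deviations. Sham replicates 1 and 2 correlated best with the imBAT library of their own number. Sham replicate 3 correlated best with imBAT replicate 3, which has another number. These values do not settle whether the numbers pair the libraries, and the main fit has no block.

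Signs turned only for genes not called in the study's comparison, whose log2 fold changes there ran from -0.27 (mt-Rnr2) to 0.37 (Ppargc1a). With upper-quartile scaling these were Mrpl13 (-0.0050), Mrpl18 (-0.0108), Mrpl37 (-0.048), Mrpl3 (-0.0589), Mrps16 (-0.0715), Mrpl1 (-0.0837), Mrpl21 (-0.0847), Mrpl43 (-0.13), Mrpl9 (-0.13), Mrpl32 (-0.15), Mrpl46 (-0.15), Mrps18c (-0.16), Mrps35 (-0.17), Mrpl33 (-0.19), Mrpl47 (-0.20) and Myc (-0.0535). With voom they were Mrpl33 (-0.0134) and Mrpl47 (-0.0088). Mrpl58 (-0.0009) turned to 0.0027 with no filter and 0.017 with the block. With 1 library left out, the lowest log2 fold change came without imBAT replicate 3 for Mrpl1 (-0.0033 to 0.2277), Mrpl43 (-0.0032 to 0.1872), Mrpl32 (-0.0327 to 0.2001), Mrpl46 (-0.0088 to 0.1411), Mrps18c (-0.1083 to 0.1782), Mrps35 (-0.0181 to 0.1172), Mrpl33 (-0.0721 to 0.09), Mrpl47 (-0.1239 to 0.0892) and Mrpl58 (-0.0845 to 0.0713). The range was -0.4525 to 0.0473 for mt-Rnr2, above 0 without sham replicate 3, and -0.0187 to 1.4704 for Ppargc1a, below 0 without sham replicate 2. The cause was not tested.

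Depth limits Mrpl53, which had too few counts for a test, and the low members Mrps18c and Mrps36. The groups hold 4 and 3 libraries, and markers of adipocytes, lymphocytes and other cell types differ between them in every comparison.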

Other observations

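The table also holds 6 genes named after members but annotated as processed pseudogenes, which the choice of members left out. Their counts over all 7 libraries ran from 0 for Mrps36-ps3 to 472 for Mrpl23-ps1. Mrpl23-ps1 had 56, 69, 54 and 124 counts in imBAT and 48, 50 and 71 counts in sham, and Mrpl48-ps had 23, 30, 59 and 86 counts in imBAT and 14, 40 and 51 counts in sham. In both, imBAT replicate 4 had the most counts although its library was the smallest of the imBAT group, at 43360208 counts. For the members imBAT replicate 3 was the highest imBAT library in 69 of 77 genes, there in TMM-scaled CPM and not in counts.

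The members lie on 17 chromosomes, with 11 on chromosome 11 and 8 on chromosome 17.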
